A study of Mus musculus with 12 samples.

Results

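Rpb2, a core subunit of RNA polymerase II, was mapped by ChIP-seq in microglia, the resident macrophages of the brain, and the 1850 Rpb2 peaks at the 3′ ends of genes are described here, of 26706 Rpb2 peaks in all. A peak was included when its deposited annotation placed it at a transcription termination site (TTS, 1117 peaks) or in a 3′ UTR (733 peaks) and its centre lay more than 2000 bp from any annotated TSS; no measured level entered that rule. Rpb2 was compared between WT mice, which carry 2 intact copies of *Cx3cr1*, and *Cx3cr1*-KO mice, in which eGFP disrupts both copies of this chemokine receptor gene. The mice were C57BL/6J littermates, 2 mo old and untreated. Live CD11b+ CD45lo cells were sorted from the brain, and each library held the cells of a pool of 3 mice of the same sex, and every genotype had a pool labelled female and a pool labelled male (n = 2 pools each). Acetylation of histone H3 at lysine 27 (H3K27ac), a mark of active promoters and enhancers, was measured in pools with the same labels.

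RNA polymerase II does not stop where the mature transcript ends. The nascent RNA is cut a short distance after a poly(A) signal, usually AATAAA or ATTAAA, by the cleavage and polyadenylation machinery, while the polymerase runs on, slows down and is released once the exonuclease Xrn2 has degraded the remaining RNA behind it. Polymerase therefore tends to accumulate past the ends of highly transcribed genes, and ChIP-seq, which reports where the protein sat and not the direction in which it moved, shows that accumulation as a peak.

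Among the 20 peaks named below for their level or for their difference between genotypes, 6 held a signal on the gene's strand, and their 8 sites are shown to place the peak relative to the cleavage position. Each site is 30 bases of the mm10 reference read 5′ to 3′ on the strand of the gene, with the signal in capitals. In *Abi3*, *Txnip*, *Rac1* and *Hip1r* a signal lies 41, 18, 18 and 36 bases before the annotated end, and the peak covers that end. The signal of *Srp72* and the more distal ones of *Txnip* and *Rac1* lie past the annotated end, and that of *Tm9sf3* lies 1768 bases before it, inside the 3′ UTR.
Abi3, chr11:95830096-95830125, minus strand: cctgggatcaagAATAAAtggaggagccag
Txnip, chr3:96561827-96561856, plus strand: tttgtaaaaaaaAATAAAgttttttaatga
Txnip, chr3:96561849-96561878, plus strand: tttaatgacaaaAATAAAtgttcttttctt
Rac1, chr5:143505482-143505511, minus strand: catgtatgaattAATAAAtccttgaatcat
Rac1, chr5:143505104-143505133, minus strand: tttgaatctttaAATAAAaattacatgtgt
Hip1r, chr5:124003167-124003196, plus strand: agttccattggcAATAAAaccctgactgtt
Srp72, chr5:77000510-77000539, plus strand: tgctagcctggcATTAAActccctgtagct
Tm9sf3, chr19:41212593-41212622, minus strand: aatttttgtcttAATAAAatgtttttcgta

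Poly(A) signals were then counted over all 3′ end peaks, which were chosen by annotated transcript ends and not by sequence. Of 1361 distinct transcript ends, 64.9% had AATAAA and 79.4% had AATAAA or ATTAAA in their last 50 bases. The 157 peaks centred within 150 bp of the end held a signal on the gene's strand in 72.0% of cases (exact 95% interval 64.3 to 78.8%) and on the other strand in 31.8%. The 591 peaks centred beyond 500 bp downstream held one in 16.8% on the gene's strand and 17.9% on the other, and over all 1844 peaks with a known transcript end the shares were 22.5% and 20.9%. Near the annotated end a signal was more frequent on the gene's strand than on the opposite one, and beyond 500 bp it was not. Since most annotated ends carry a signal, a peak that covers its end mostly takes it up. The share within 150 bp is thus largely set by the annotation and is not a separate check on the peaks. Without regard to strand, a signal was present in 37.2% of 3′ end peaks, 31.9% of intronic peaks, 27.8% of intergenic peaks and 8.68% of promoter peaks, whose median GC content was 64.5%, against 49.1% in the 3′ end peaks.

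Sequencing depth was 11662185 reads for the library labelled WT female, 13653287 for WT male, 44332626 for KO female and 16528108 for KO male, and a 3′ end peak held a median of 21 reads, 24 reads, 94 reads and 43 reads in that order. Peaks on the Y chromosome held 104 per 1000000 peak reads in the library labelled WT female, against 138 in WT male, 107 in KO male and 0 in KO female, which goes against the female label of that library; its genotype label was kept. All 10 microglial marker genes checked, among them *P2ry12*, *Tmem119* and *Sall1*, had an Rpb2 peak within 1000 bp of a TSS, and 8 of the 10 also had a 3′ end peak. No promoter peak was present for any of the 7 border-associated macrophage markers, 7 monocyte and neutrophil markers, 6 lymphocyte markers or 7 neuronal markers, whereas 1 of 6 astrocyte, 1 of 6 oligodendrocyte and 2 of 5 endothelial markers had one. The summed promoter level of the oligodendrocyte markers was 84.0 CPM in the library labelled WT female and at most 35.3 CPM in the others, and its part in any result below was not tested. CPM stands here for reads per 1000000 reads in peaks after TMM normalization.

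The position of each peak was measured from the annotated end of its transcript, which was known for 1844 of the 1850 peaks, in 1346 genes. The median centre lay 205 bp downstream of the end, with an interquartile range from −710 to 623 bp, and 1062 peaks (57.6%) were centred downstream. The density of centres was 419 per kb from 1000 to 150 bp upstream, 523 per kb within 150 bp of the end, 1054 per kb from 150 to 500 bp downstream and 1180 per kb from there to 1000 bp downstream. Centres were thus densest past the annotated end. The annotation calls almost no TTS beyond 1000 bp, where 5 of the peaks lay. For that reason all Rpb2 peaks over 2000 bp from a TSS, whatever their annotation, were also counted. The count was made around the ends of all 6731 genes that had a promoter peak and a transcript of at least 5000 bp. In the shortest of these genes, the limit on TSS distance leaves out peaks in the bins farthest upstream. There were 1.71 peaks per 100 genes in the 500-bp bin that starts 5000 bp upstream of the end, 3.42 in the bin just before the end, 5.20 in the first bin after it, and 6.31 in the next. The bin from 1000 to 1500 bp still held 6.08 peaks per 100 genes, and the count declined to 1.16 at 9500 to 10000 bp, so the limit of the annotation falls near the top of the distribution and the peaks just inside and just outside it, 425 and 409, were about equally frequent. Members just inside the limit on TSS distance, 2000 to 2100 bp away, numbered 10 with a median of 16.02 CPM, and the 22 peaks left out at 1900 to 2000 bp had a median of 13.3 CPM.

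**Figure D1:**
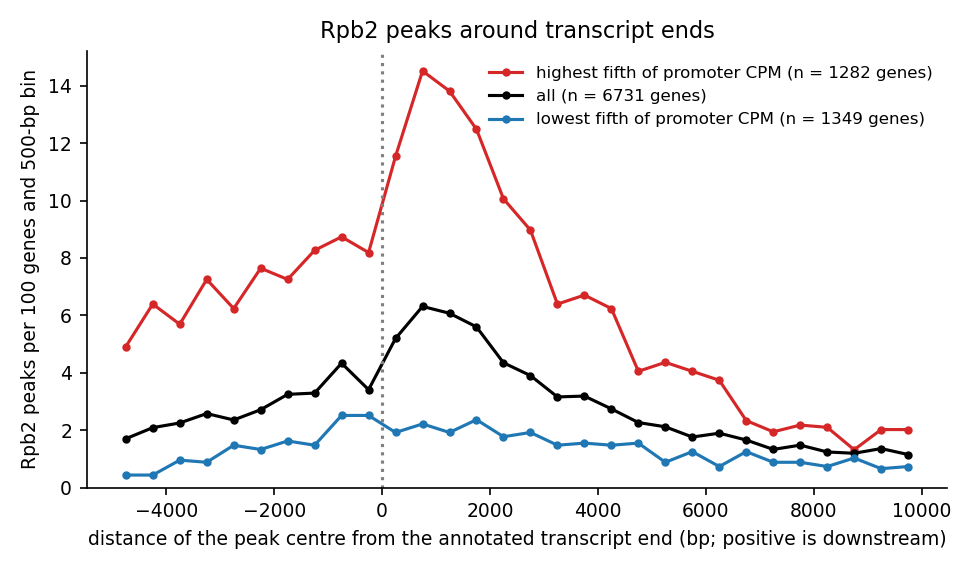
Number of Rpb2 peaks over 2000 bp from a TSS per 100 genes in bins of 500 bp, against the distance of the peak centre from the annotated transcript end, for all genes with a promoter peak (black), and for those in the highest (red) and lowest (blue) of 5 equal groups by promoter CPM. Among all genes the count rises to 6.31 between 500 and 1000 bp downstream, where it is 14.5 in the highest group and 2.22 in the lowest. The lowest group does not rise past the end, and its bin just before the end holds 2.52.

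Genes with more Rpb2 at the promoter more often had a 3′ end peak. Of the 8350 genes with a promoter peak, 1093 (13.1%) had a 3′ end peak. When the genes were divided into 5 equal groups of 1670 by promoter CPM, the share was 5.39%, 7.07%, 10.4%, 13.7% and 28.9% from the lowest group to the highest. Between 500 and 1000 bp past the end, the highest group had 14.5 peaks per 100 genes and the lowest had 2.22. The lowest group showed no rise past the end, with 2.52 in the bin just before it and 1.93 in the first bin after it. Across the 1093 genes with both, Spearman's correlation between the summed CPM at the 3′ end and at the promoter was 0.30; genes are not independent replicates, and both values come from the same 4 libraries. Per kb of peak, the 3′ end level was a median of 0.224 of the promoter level (interquartile range 0.129 to 0.425), and it exceeded the promoter level in 77 genes (7.05%).

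Genes that mark microglia were among those with the highest Rpb2 level at the 3′ end. The peak 929 bp past the end of *C1qa*, a chain of complement C1q, had 287 reads in the WT pool labelled female, 263 in WT male, 1041 in KO female and 414 in KO male, or 198 ± 35.4 CPM in WT and 175 ± 19.7 CPM in KO (mean ± SD, n = 2 pools). That of the actin gene *Actb*, 873 bp past its end (chr5:142902023-142902461), reached 182 ± 14.9 CPM in WT and 188 ± 14.8 CPM in KO. The pools of the 2 genotypes overlapped at both genes. The peak of *Tmem119*, a surface protein used as a microglial marker, lay 851 bp past the end and held 161 CPM, 157 CPM, 158 CPM and 79.2 CPM in the 4 libraries in the same order. The KO male library alone was low at *Tmem119*, and the difference between genotypes was smaller than the spread between the KO pools.

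*Adap2*, *Abi3*, *Fam120a*, *Txnip*, *Rac1*, *Soga1* and *Rin3* were the others of 11 leading genes described, together with *Cx3cr1*. *Abi3* encodes a regulator of actin assembly, *Txnip* a binding partner of thioredoxin, *Rac1* a small GTPase and *Rin3* an activator of Rab5. *Abi3* gave 200 CPM and 159 CPM in the WT pools and 135 CPM and 133 CPM in the KO pools, with both KO pools below both WT pools and a log2 fold change of −0.42 whose SE was 0.23 and adjusted p = 0.494 in edgeR's quasi-likelihood test over all peaks. *Rac1* likewise gave 135 CPM and 167 CPM in WT and 109 CPM and 131 CPM in KO, with a value of −0.34 on the same scale (SE 0.25, adjusted p = 0.604). Apart from *Cx3cr1*, none of the 11 had a lower adjusted p than *Abi3*, and their log2 fold changes ran from −0.42 to 0.10. Per kb of peak the levels ran from 174 CPM at *Rac1*, whose peak spanned 779 bp, to 669 CPM at *C1qa*. All 11 peaks overlapped an H3K27ac peak. They also show why the nearest TSS is a poor guide to the gene: that of *C1qa* is nearest the TSS of *C1qc*, that of *Abi3* nearest *Phospho1* and that of *Fam120a* nearest *Phf2*. In all, 978 of the 1846 peaks with a gene were nearest the TSS of another gene, and 275 of the 1850 (14.9%) lay within 1000 bp of the end of a gene on the opposite strand, as at *Fam120a* with *Phf2os1*. Reads at such ends cannot be told apart by gene, since ChIP-seq keeps no strand of transcription.

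**Figure D2:**
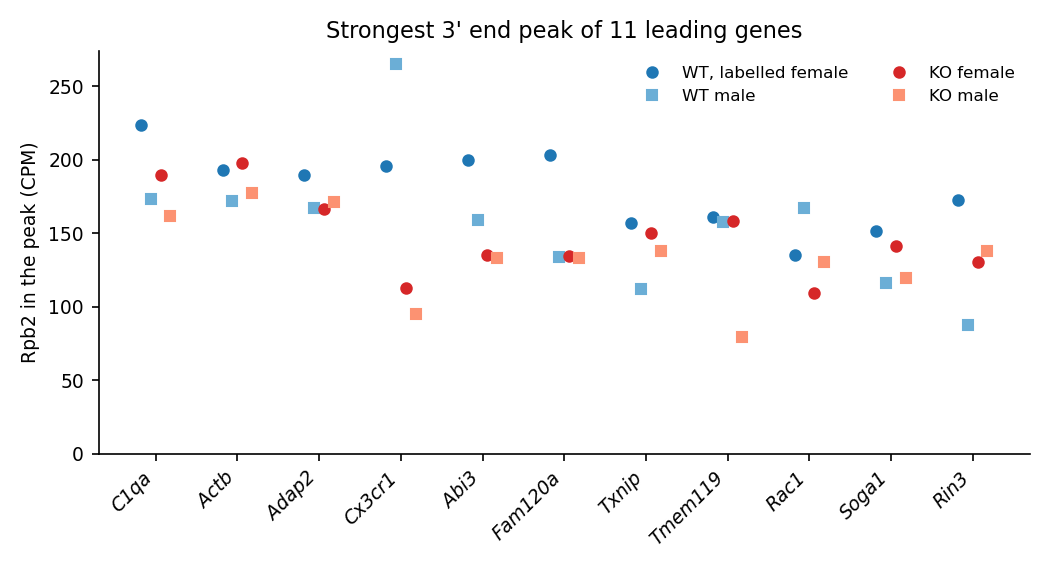
Rpb2 level (CPM) of the strongest 3′ end peak in each of 11 leading genes; each point is 1 library (blue WT, red KO, circles labelled female, squares male). The genotypes overlap in 8 of the 11 genes and lie apart in Cx3cr1, Abi3 and Rac1, with both KO pools below both WT pools, as in 21.7% of all Rpb2 peaks.

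Most genes had a single 3′ end peak (991 of 1346), 355 had at least 2 and 35 had at least 4. *Soga1* and *Qk*, the gene of an RNA-binding protein that regulates splicing, had 7 each. The 7 peaks of *Soga1* ran from 7275 bp upstream to 963 bp downstream of the end, and their level was 175 CPM per kb, against 115 CPM per kb at its promoter. *Ssh2*, which encodes a phosphatase that activates cofilin, had 6 peaks, and *Srgap2*, a GTPase-activating protein, and *Tanc2* had 5. In these 5 genes the members lay mainly along a long 3′ UTR, and in each of them the peaks came from more than 1 deposited list: of the 7 peaks of *Soga1*, 3 were called in KO alone, 2 in WT alone and 2 in both. Neighbouring peaks of a gene are not independent measurements. Their log2 fold changes ran from −1.06 to 0.93 in *Soga1* and from −1.16 to 1.93 in *Qk*, and none passed the threshold.

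Genes of the microglia signature were the list, of 7 compared, with the highest share of 3′ end peaks. Of 44 signature genes, 38 had a 3′ end peak, with 64 peaks in all and a median level of 141 CPM per kb, against 54.5 CPM per kb over all 3′ end peaks. Of the 36 signature genes in the highest group by promoter level, 31 had a 3′ end peak, compared with 28.9% of that group as a whole. The corresponding figures were 18 of 21 for lysosomal genes (among them *Lgmn*, *Ctsd* and *Laptm5*), 13 of 19 for cytoskeletal and housekeeping genes (*Actb*, *Tmsb4x*, *Ftl1*), 13 of 23 for immediate-early genes (*Zfp36l2*, *Dusp6*, *Rhob*) and 14 of 54 for translation genes (*Eif1*, *Rplp2*, *Rpl11*, *Eif4a2*). *Neat1* was the only one of 12 nuclear noncoding RNA genes with a 3′ end peak. None of 30 genes of the cleavage, polyadenylation and termination machinery itself had one. Of these, 24 had a promoter peak, at a median of 43.7 CPM, and 5 were in the highest group. In the group of genes that spans this median (39.7 to 60.7 CPM), 10.4% had a 3′ end peak, so few would be expected in so short a list. The limit on TSS distance can leave out peaks at the ends of short genes. The lists were compared within the highest group by promoter level, which ran from 99.4 to 818 CPM. Within it they were matched neither for promoter level nor for gene length. Over all genes with a promoter peak, the median promoter level was 120 CPM in the translation list and 204 CPM in the signature. It was 270 CPM in the cytoskeletal and housekeeping list. The part of promoter level and of gene length in the differences between their shares was not tested. The lists overlap, since *Ctsd*, *Lgmn* and others are in both the signature and the lysosomal list, and they were drawn up with earlier results known.

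H3K27ac was less frequent at 3′ end peaks than in the other 4 classes of Rpb2 peak compared. An H3K27ac peak overlapped 663 of the 1850 (35.8%, exact 95% interval 33.7 to 38.1%), compared with 49.7% of 658 coding exon peaks (45.8 to 53.6%), 64.8% of 8012 intronic peaks (63.7 to 65.8%), 68.0% of 4525 intergenic peaks (66.6 to 69.3%) and 98.2% of 10125 promoter peaks (98.0 to 98.5%). The intervals cover counting error only. The overlap decreased with distance from the TSS, from 48.0% of 448 3′ end peaks at 2000 to 5000 bp to 20.6% of 131 beyond 50000 bp, and at the same distances 79.7% and 55.7% of the intronic peaks overlapped. It was also higher at peaks called in both genotypes. Of the 259 3′ end peaks called in both genotypes, with a median of 38.3 CPM, 59.1% overlapped, compared with 85.5% of the intronic peaks called in both. The share was 60.9% at the 64 signature peaks (interval 47.9 to 72.9%).

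**Figure D3:**
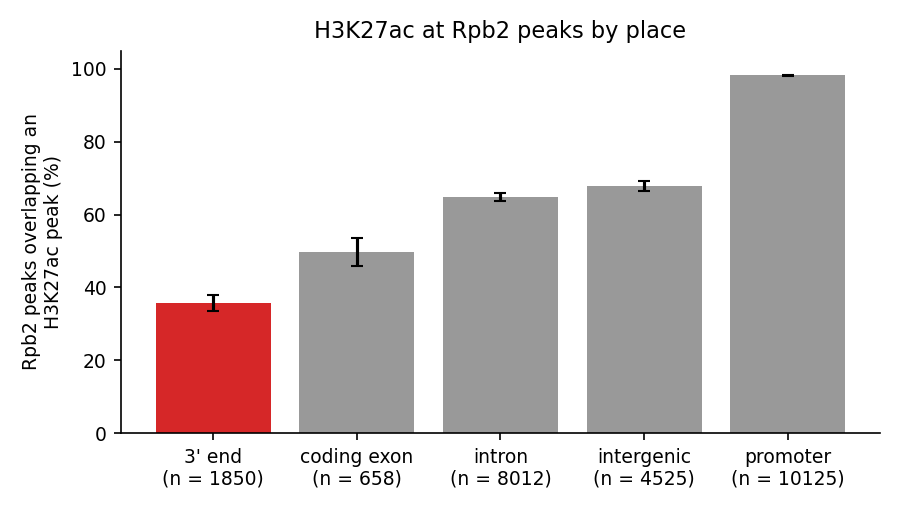
Share of Rpb2 peaks that overlap an H3K27ac peak by at least 1 bp, by place (3′ end in red); error bars are exact 95% binomial intervals and cover counting error only. The 3′ end peaks have the lowest share, 35.8%, and promoter peaks the highest, 98.2%.

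Whether loss of *Cx3cr1* changed Rpb2 at 3′ ends was tested peak by peak, and all 1850 passed the filter on low counts. No 3′ end peak passed an adjusted p of 0.05 in edgeR's quasi-likelihood test, and 2 of all 26706 peaks did (0.00749%). The lowest adjusted p among the 3′ end peaks was 0.198. At an unadjusted p under 0.05, 169 were higher in KO (9.14%, against 6.12% of all peaks) and 89 were lower (4.81%, against 6.06% of all peaks). Both KO pools lay above both WT pools at 616 peaks (33.3%, against 25.7% of all peaks) and below them at 361 (19.5%, against 21.7%). The tilt was not particular to 3′ ends. Of the intronic peaks, 9.67% were higher and 4.61% lower at an unadjusted p under 0.05. Both KO pools lay above both WT pools at 34.8% of the intronic peaks and below them at 17.5%. DESeq2 called 76 of the 3′ end peaks (4.11%, against 3.83% of all peaks), 48 higher and 28 lower; 33 of the 76 had no read in at least 1 library, and 1 came from the lists of both genotypes. Without the library labelled WT female edgeR called 212 of the 3′ end peaks (8.28% of all peaks), and without WT male 193 (7.35% of all peaks), where the lone WT pool is assumed to vary as the KO pools do, whereas it called none without either KO library.

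The direction of most peaks followed the list they came from. The deposited table merges peaks called in WT with peaks called in KO, and 259 of the 1850 3′ end peaks came from both lists, against 55.4% of promoter peaks. The KO list alone gave 63.5% of the 3′ end peaks and the WT list alone 22.5%. The median log2 fold change was 0.71 for peaks of the KO list alone, −0.87 for those of the WT list alone and −0.20 for those of both lists, and the same medians over all peaks of the 3 kinds were 0.51, −0.89 and −0.17. A peak of 1 list was chosen on its level in that genotype, so these directions are partly fixed by the choice. Over all 1850 the median was 0.22, compared with 0.04 over all 26706 peaks, and 58.8% were higher in KO. Intronic peaks had a median of 0.28, and 61.6% of them were higher in KO. With the total reads of a library as the scale, the medians of the 3′ end peaks and of all peaks were 0.54 and 0.37. On that scale 72.7% of the 3′ end peaks were higher.

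**Figure D4:**
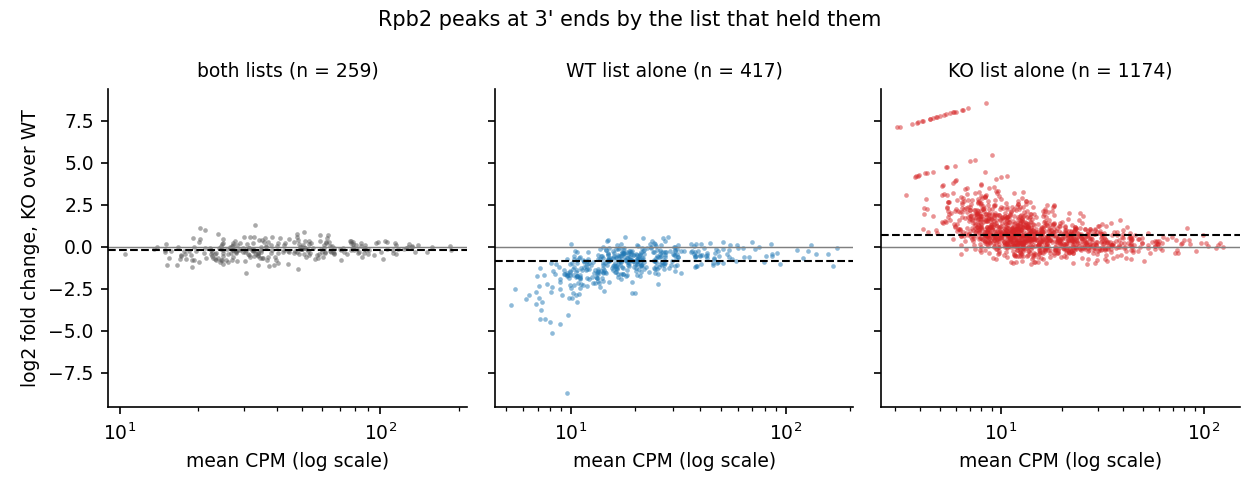
Log2 fold change, KO over WT, of each 3′ end peak against its mean CPM (log scale), in a panel for each list of origin; dashed lines are medians. The medians are −0.20 for both lists (n = 259), −0.87 for the WT list alone (n = 417) and 0.71 for the KO list alone (n = 1174), with the widest spread at low CPM.

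Exact 0 values were more frequent than neighbouring counts. In the 1174 peaks found on the KO list only, counts of the library labelled WT female were 0 reads at 99 peaks, 1 read at 36 and 2 reads at 43, and WT male held 0 reads at 103, 1 read at 27 and 2 reads at 25. Of all 3′ end peaks, 205 (11.1%) had 0 in at least 1 library, against 6.59% of all Rpb2 peaks, and 23 had 0 in both WT libraries. How these zeros arose is not given in the sources used here, and a peak listed at 0 is given below with its counts. Of the 1645 peaks with a read in every library, 95 were higher (5.78%, against 3.92% of all Rpb2 peaks with a read in every library) and 78 lower (4.74%, against 6.1%) at an unadjusted p under 0.05.

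The 5 peaks with the lowest p in each direction whose pools did not overlap all missed the threshold in edgeR, at an adjusted p of 0.198, whereas DESeq2 called all 10, at adjusted p from 0.000232 to 0.0264. On the higher side, the 3′ UTR peak of *Tmem229b* (chr12:78962315-78962585) was listed at 0 in both WT libraries and held 88 reads in KO female and 45 in KO male, which is at least 15.4-fold higher with 3 reads over the WT group (1.07 CPM) as the floor, a bound that holds only if the listed 0 values are counts. By the same floor and on the same condition, the TTS peak of *Hras*, a small GTPase, with 80 and 33 reads in KO, was at least 13.1-fold higher, and that of *Acvr2a*, an activin receptor, with 82 and 28 reads, at least 12.8-fold higher. The TTS peak of *Hip1r*, a protein that links clathrin coats to actin, held 2 reads and 1 read in WT against 117 and 50 in KO, and the 3′ UTR peak of *Trim56*, a ubiquitin ligase, held 1 and 0 in WT and 75 and 56 in KO. All 5 came from the KO list alone, and none overlapped an H3K27ac peak.

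On the lower side, the TTS peak of *Spop*, a substrate adaptor of a cullin ubiquitin ligase (chr11:95494167-95494453), had 28 and 25 reads in the WT libraries and was listed at 0 in both KO libraries, at least 50.8-fold lower by a floor of 3 reads over the KO group (0.372 CPM), again only if the 0 values are counts. The TTS peak of *Pink1*, a mitochondrial kinase, had 17 and 36 reads in WT against 7 and 2 in KO, and that of *Srp72*, a subunit of the signal recognition particle, 33 and 9 in WT and 1 and 2 in KO. The 3′ UTR peak of *Tm9sf3* had 23 and 17 reads in WT against 5 and 1 in KO. These 4 came from the WT list alone. The other peak on the lower side was at *Cx3cr1* itself.

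The 3′ end of *Cx3cr1*, on the minus strand of chromosome 9, carried 4 peaks, whose log2 fold changes differed in sign. The most upstream, in the 3′ UTR 1475 bp before the end (chr9:120050039-120050278), had 75 and 68 reads in WT against 619 and 292 in KO, or 51.5 ± 9.58 CPM in WT and 113 ± 0.949 CPM in KO, with both KO pools above both WT pools. The log2 fold change there was 1.14, with an SE of 0.30 and an adjusted p = 0.198 in edgeR's quasi-likelihood test. The next, 875 bp before the end, had 203 and 181 reads in WT against 708 and 261 in KO, and the one 303 bp before the end held 140 and 138 in WT and 478 and 203 in KO. Both had a log2 fold change of −0.26 (SE 0.26 and 0.28), no larger than its SE, and it became 0.05 and 0.06 with total reads as the scale. The TTS peak 505 bp past the end (chr9:120048021-120048335) had 252 and 402 reads in WT against 620 and 243 in KO, or 230 ± 48.6 CPM in WT and 104 ± 12.7 CPM in KO, with both KO pools below both WT pools. Here it was −1.15, with an SE of 0.24 and the same adjusted p of 0.198. Adjusted p values of the first and the last of the 4 ran from 0.00779 to 0.907 and from 0.000346 to 0.846 over the alternatives tried.

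The difference continued past the annotated TTS. Outside the 4, and singled out after its values were seen, an annotated intergenic peak 2112 bp past the same end had a log2 fold change of −2.86, lower in KO, with an SE of 0.26 and an adjusted p of 0.00264 in edgeR's test, and is 1 of the 2 peaks called in the whole table. That peak came from the KO list alone, although its level was lower in KO, unlike most peaks of that list. From 1475 bp before the end to 2112 bp after it, the log2 fold changes were 1.14, −0.26, −0.26, −1.15 and −2.86. Per kb, the WT pools went over this stretch from 243 and 187 CPM to 657 and 583 CPM, while the KO pools went from 469 and 475 CPM to 70.5 and 102 CPM. The 4 peaks overlapped H3K27ac. Reads of eGFP have no place in the mm10 sequence, so what is counted in KO comes from the sequence of *Cx3cr1* that the disrupted allele retains and its flanks.

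**Figure D5:**
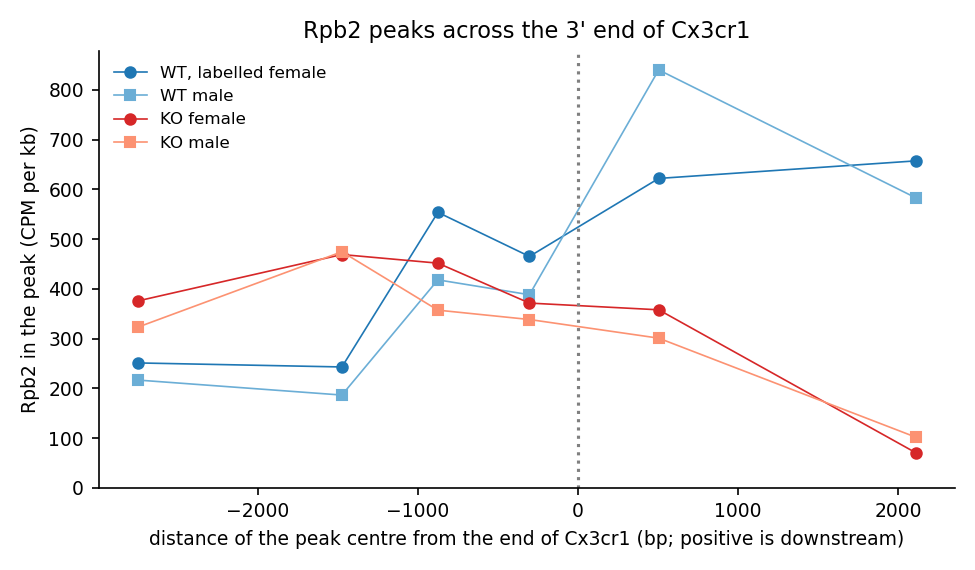
Rpb2 level (CPM per kb of peak) of the 6 peaks from −2752 to 2112 bp of the annotated end of Cx3cr1, in each of the 4 libraries; the dotted line marks the end, and the first and last peak are not 3′ end peaks by annotation. KO lies above WT at 1475 bp before the end and below it past the end.

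None of the gene groups had a peak that passed the threshold in edgeR. DESeq2 called 2 of the 64 peaks of the microglia signature, both at *Cx3cr1*, against 3.83% of all Rpb2 peaks. It also called 2 of the 25 lysosomal peaks, *Lamp1* higher and *Ppt1* lower in KO, both named after their values were seen. None was called in the other groups. In the microglia signature, 2 of 64 peaks were higher and 7 lower at an unadjusted p under 0.05 (14.1% together, against 12.2% of all Rpb2 peaks), and the median log2 fold change was −0.18, and of these peaks 10 were on both lists, 29 on that of WT only and 25 on that of KO only. The lysosomal group had 2 higher and 3 lower of 25 (20.0%), with a median of −0.04. *Ctsd*, which encodes the protease cathepsin D, had 81.6 CPM and 82.3 CPM in WT and 51.1 CPM and 56.6 CPM in KO at its 3′ UTR peak, without overlap, and its log2 fold change of −0.61 had an SE of 0.31 and an adjusted p of 0.458. The translation group had 2 higher and 1 lower of 27 (11.1%), with a median of 0.51, and 20 of its peaks were on the KO list only. Neither the 26 immediate-early peaks, with a median of 0.17, nor the 15 cytoskeletal and housekeeping peaks, with a median of 0.19, had any at that level. Over the peaks on both lists, the median was −0.04 in the signature (10 peaks), 0.17 in the immediate-early group (6 peaks), and the lysosomal, translation and cytoskeletal groups, with 2 such peaks each, had 0.10, −0.31 and 0.30.

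The balance between the 3′ end and the promoter of the same gene was tested as an interaction within libraries, with a term for each library that takes up its depth. Of 1092 genes with enough reads in both places, none was called by edgeR (0.0%), and at an unadjusted p under 0.05 the 3′ end was higher relative to the promoter in KO in 147 genes and lower in 35. The median log2 change of the balance was 0.31 over all 1092, 0.98 over the 613 genes whose peaks came from the KO list alone, −0.92 over the 155 of the WT list alone and −0.14 over the 111 of both lists. A peak of 1 list was chosen on its level in that genotype, so the counts and these medians are partly fixed by the choice. Promoter peaks as a whole had a median log2 fold change of −0.11, and its part in the balance was not tested. The lowest adjusted p was 0.101, shared by 20 genes, and the 5 with the lowest p are given. *Kpnb1*, which encodes importin β1, had 3′ end reads equal to 1.48% and 2.11% of its promoter reads in WT and 11.6% and 12.1% in KO. *Camk2d*, a calcium-dependent kinase, was listed at 0 in both WT libraries and had 78 and 25 reads in those of KO at the 3′ end, and *Irf1*, a transcription factor of the interferon response, was listed at 0 in WT against 84 and 20 in KO. In the other direction, *Etv3*, an ETS family repressor, had 21 and 17 reads in WT against 6 and 0 in KO at the 3′ end, and *Srp72* had the 3′ end counts given above. The promoter of *Srp72* had 18 and 6 reads in WT against 147 and 48 in KO. Its promoter and 3′ end thus differed in opposite directions, and its balance rests on few promoter reads in WT.

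The share of all peak reads that fell in 3′ end peaks was 4.27% in the library labelled WT female (exact 95% interval 4.24 to 4.31%), 4.12% in WT male (4.09 to 4.15%), 4.58% in KO female (4.57 to 4.60%) and 4.45% in KO male (4.43 to 4.48%). Both KO pools were above both WT pools, with a difference of 0.323 percentage points (4.52 ± 0.0915% against 4.20 ± 0.111%, n = 2 pools each). The exact two-sided permutation test gave p = 0.333, the smallest that 2 pools against 2 allow. Counted over the peaks of both lists alone, the shares were 2.09 ± 0.0763% in WT and 2.11 ± 0.0135% in KO, with a difference of 0.0208 percentage points that was smaller than the spread between the WT pools (exact permutation p = 1.0). The share of intronic peaks was 1.90 percentage points higher in KO, and that of promoter peaks was 59.0% in WT and 55.9% in KO. In pooled cells, fewer cells with polymerase at a site and less polymerase per cell cannot be told apart.

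H3K27ac over the 3′ ends was compared as a separate readout. None of the 496 H3K27ac peaks that overlap a 3′ end peak passed an adjusted p of 0.05 in edgeR's quasi-likelihood test, against 13 of 55798 H3K27ac peaks overall (0.0233%), and the lowest adjusted p was 0.523. At an unadjusted p under 0.05, 9 were higher and 7 lower, together 3.23%, against 4.95% of all H3K27ac peaks. Their median log2 fold change was 0.10, compared with −0.21 over all H3K27ac peaks. The common dispersion, edgeR's measure of the variation between pools of a genotype, was 1.28 for H3K27ac and 0.133 for Rpb2. With pools that variable, the absence of calls does not show that H3K27ac was unchanged. Without the WT male H3K27ac library 118 of 495 were called, 115 of them higher in KO, against 14.8% of all H3K27ac peaks, and without the WT female library 12 of 492 were called, against 1.53%, with the lone WT pool assumed to vary as the KO pools.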

How the data were processed

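The authors mapped single-end reads of 51 nt to mm10 with Bowtie2, discarded reads without a unique position, found peaks with HOMER, keeping those that recurred in the 2 pools, and merged the peaks of both genotypes (versions not given in the sources used here). They deposited raw counts per merged peak and library with the HOMER annotation. Input libraries were not analysed here.

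A peak's gene was that of its annotated transcript in the RefSeq annotation of GRCm38. On all 20 chromosomes with a 3′ end peak, no Rpb2 peak reached past the chromosome length given there. All 26706 Rpb2 and 55798 H3K27ac peaks averaging 4 reads or more in WT or KO were fitted with edgeR 4.0.16 in R 4.3.3 (TMM, glmQLFit and glmQLFTest, genotype alone, Benjamini-Hochberg over all peaks). The balance fit used reads summed per gene, averaging 10 or more, at the 3′ end and within 1000 bp of the TSS. AATAAA and ATTAAA were searched on both strands. H3K27ac overlap meant at least 1 bp. Alternatives used DESeq2 1.42.0, other scalings, filters and distances, and each library left out; the filter of at least 1 read in every library was added after the data were seen. SciPy 1.17.1 in Python 3.11.15 gave exact tests and 95% binomial intervals, which, like the floor of 3 reads over a group (1.07 CPM in WT, 0.372 CPM in KO), cover counting error only. With 2 pools per genotype, p-values measure the spread between these pools.

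The genes named are the 12 with the highest peak CPM (1 of them is not reported here), the 5 lowest p in each direction without overlap of pools, the 5 with most peaks, the 5 lowest p in the balance fit, *Cx3cr1*, and the highest of each gene list. Ribosomal proteins were taken by symbol, without the S6 kinases and *Rpl7l1*. The peaks and lists were chosen with earlier results of these data known.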

Additional observations from a re-analysis of the deposited data

How the results depend on the processing

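The count of 3′ end peaks called was 0 with total reads or DESeq2 size factors as the scale and with no filter, 1 (*Dip2b*, lower in KO, adjusted p = 0.049 in edgeR) with at least 10 reads in every library and 76 with DESeq2; leaving out 1 library in turn gave 0 to 212, with 212 without the library labelled WT female (8.28% of all peaks called) and 193 without WT male (7.35%), where the lone WT pool is taken to vary as the KO pools do. The median log2 fold change of 0.22 became 0.54 with total reads, 0.013 with at least 10 reads and 0.12 with at least 1 read in every library, 0.088 in a fit of peaks over 1000 bp from a TSS, −0.20 for the peaks of both lists, and 0.17 to 0.23 with a library left out. With the sex label as a replicate block it was 0.27 and the count of calls stayed at 0; the deviations of the pools that share a sex label had a correlation of 0.0056, and over all Rpb2 peaks the block gave 4 calls instead of 2. It changed no call of the 3′ end peaks named or of H3K27ac over them, and was not run for the balance, which already has a term for each library, or the share of peak reads. The balance fit called 32 genes without the library as a block and 1 with the peaks of both lists. The share of peak reads kept its direction under the alternatives tried, with a difference of 0.0208 to 0.401 percentage points. With 1 H3K27ac library left out, 0 to 118 H3K27ac peaks were called. The share with a poly(A) signal of 22.5% was 15.0% for AATAAA alone, 36.5% in a window of 500 bp and 24.8% for the peaks of both lists. The *Cx3cr1* peaks 303 and 875 bp before the end turned to 0.059 and 0.052 with total reads. Of 155 refits of the 13 peaks named for low p or at *Cx3cr1*, 122 kept direction and call, 31 kept direction and passed the threshold and 2 turned. The cause of these changes was not tested.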
